A study of Rattus norvegicus with 96 samples.

Results

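The 7 genes described here, Mag, Mbp, Mog, Mobp, Cnp, Cldn11 and Ugt8, code for components of central nervous system myelin. They were taken by name: all probe sets that the array's annotation assigns to these symbols were used, 14 of the 31042 probe sets without controls. Of the 14, 12 were tested, their mean log2 signal exceeding the 40th percentile of the region's probe sets in both regions. The other 2, Cldn11 1369609_at and Ugt8 1368857_at, lay below it in both regions, with means of 5.94 and 3.74 in the amygdala and 5.42 and 4.27 in the accumbens. For each gene the probe set with the highest mean over all 96 arrays leads the description.

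The samples were 96 arrays of alcohol-preferring (P) rats, a line selected for high alcohol intake. Brain tissue was the amygdala's central nucleus (CeA, 48 arrays) or the accumbens shell (NAc shell, 48 arrays). Ethanol rats drank under limited access, water rats received no ethanol, and brains were sampled at 1, 6 or 24 h from the last episode of drinking. The CeA held 11, 10 and 10 arrays of ethanol rats and 6, 5 and 6 of water rats at these times, and the NAc shell held 10, 10 and 11 arrays of ethanol rats and 7, 5 and 5 of water rats. All groups shared the strain and the 2-cycle labelling from 25 ng of total RNA. The labels give no age, and they do not say whether each array is a separate rat or whether the regions came from the same rats, so p-values measure the spread between arrays.

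Values are log2 intensities made by RMA, and each probe set is compared only with itself. The lower quartile of an array lay between 5.75 and 5.88 for CeA arrays and between 6.01 and 6.16 for those of the NAc shell, ranges that do not overlap, so an offset from separate normalization of the regions is possible. As an alternative, all 96 arrays were quantile normalized together, which moved Mbp between the regions from -0.008 to 0.10 in ethanol rats. Over the alternatives that kept all 7 genes, their median region difference in ethanol rats was 0.77 to 0.84. The offset itself was not tested. In water rats all 8 tested markers of striatal projection neurons passed the test as lower in the CeA (median log2 difference -2.53). Among all probe sets tested in both regions, 38.3% did so. Of 3 markers of the central amygdala tested in both regions, Prkcd was higher (0.69) and Nts and Sst were lower (-0.45 each). Crh, another such marker, exceeded the limit on mean signal in the CeA but not in the NAc shell, so it was not compared. No probe set was available for Tac2, also on that list. The numbers in the CeA titles form 4 runs in each treatment, a new run starting where the times restart. Runs of ethanol and water arrays were matched by their order, a match that no label states. Judged by how well each array correlated with its region's other arrays, 4 CeA arrays, all in run 4, and 5 NAc shell arrays stood low.

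Myelin is the membrane sheath that oligodendrocytes wrap around axons, which speeds conduction. It is rich in galactolipids and in a small set of abundant proteins that mature oligodendrocytes make at high level. Grey matter nuclei such as the CeA and the NAc shell hold fewer myelinated fibres than the tracts that border them. In such bulk samples, fewer oligodendrocytes and less RNA per cell cannot be told apart.

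Upstream windows were available for 6 of the 7 genes. Those of Mag, Mobp and Cnp are shown, chosen after the matches were seen: the windows of Mag and Cnp hold both ACAAAG and CTGGCAC, and that of Mobp holds ACAAAG most often. The windows run from 250 bases before to 50 bases after the start site (RefSeq, build GRCr8): Mag at chr1:95290995-95291294 on the minus strand, Mobp at chr8:128746982-128747281 and Cnp at chr10:86011254-86011553 on the plus strand. Capitals mark, on either strand, ACAAAG and ACAATG (Sox type), CTGGCAC (Myrf type), GGGCGG (GC box) and TATAAA. No marked motif overlaps another.
Mag: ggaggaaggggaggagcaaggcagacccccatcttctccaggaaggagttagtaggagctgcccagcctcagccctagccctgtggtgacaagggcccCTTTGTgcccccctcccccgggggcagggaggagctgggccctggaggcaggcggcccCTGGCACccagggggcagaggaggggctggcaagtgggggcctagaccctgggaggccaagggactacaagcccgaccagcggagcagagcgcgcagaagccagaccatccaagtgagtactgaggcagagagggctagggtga
Mobp: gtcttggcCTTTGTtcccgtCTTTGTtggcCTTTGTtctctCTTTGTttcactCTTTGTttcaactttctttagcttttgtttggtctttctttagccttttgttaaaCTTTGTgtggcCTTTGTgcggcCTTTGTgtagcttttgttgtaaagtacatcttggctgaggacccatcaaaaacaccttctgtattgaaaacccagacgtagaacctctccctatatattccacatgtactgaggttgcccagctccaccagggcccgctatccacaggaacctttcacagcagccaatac
Cnp: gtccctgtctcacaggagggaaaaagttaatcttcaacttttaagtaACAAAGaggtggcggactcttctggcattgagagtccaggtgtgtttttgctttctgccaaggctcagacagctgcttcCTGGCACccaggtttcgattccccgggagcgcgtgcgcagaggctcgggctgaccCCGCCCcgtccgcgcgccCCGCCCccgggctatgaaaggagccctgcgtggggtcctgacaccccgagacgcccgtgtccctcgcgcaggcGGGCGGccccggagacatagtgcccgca

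The Mobp window held ACAAAG 8 times, each as its reverse complement CTTTGT and all upstream of the start site. ACAAAG occurred once in the Mag window and once in the Cnp window, and 18.78% of all 33469 promoter windows hold it. CTGGCAC was found in the windows of Mag and Cnp, against 4.75% of all windows. Of the 2 Mbp windows, the first held GGGCGG 3 times and the second held ACAATG 2 times, ACAAAG once and GGGCGG once. GGGCGG, present in 33.06% of all windows, was found once for Cldn11 and 3 times for Ugt8. These matches describe letters and say nothing of binding.

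The levels of each gene in the 12 groups are given as mean ± SD of log2 values at 1, 6 and 24 h, with the numbers of arrays stated above. Mag had 10.78 ± 0.70, 10.46 ± 0.71 and 10.63 ± 0.55 in ethanol rats, against 10.59 ± 0.52, 11.17 ± 0.76 and 10.63 ± 0.75 in water rats of the CeA. NAc shell values of Mag were 9.64 ± 0.35, 9.65 ± 0.35 and 9.55 ± 0.37 in ethanol rats, against 9.66 ± 0.22, 9.69 ± 0.23 and 9.68 ± 0.29 in water rats. The CeA order was lowest in ethanol rats at 6 h and highest in water rats at 6 h, and no step between neighbours in either region exceeded the within-group SD. Mog in the CeA averaged 11.73 ± 0.62, 11.48 ± 0.72 and 11.58 ± 0.53 in ethanol rats, against 11.56 ± 0.47, 12.01 ± 0.67 and 11.59 ± 0.81 in water rats. Its NAc shell means were 10.71 ± 0.36, 10.59 ± 0.32 and 10.66 ± 0.49 in ethanol rats, against 10.88 ± 0.19, 10.71 ± 0.17 and 10.64 ± 0.21 in water rats. Ethanol rats at 6 h were thus lowest for Mog in both regions, by less than 1 SD from the next group.

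Mobp had CeA means of 14.28 ± 0.28, 14.12 ± 0.38 and 14.14 ± 0.41 in ethanol rats, against 14.08 ± 0.32, 14.38 ± 0.53 and 14.05 ± 0.53 in water rats. Across the NAc shell, Mobp stood at 13.43 ± 0.29, 13.34 ± 0.32 and 13.41 ± 0.49 in ethanol rats, against 13.47 ± 0.20, 13.49 ± 0.19 and 13.20 ± 0.23 in water rats. The lowest Mobp group in each region was water rats at 24 h. Cnp averaged 13.29 ± 0.46, 13.02 ± 0.48 and 13.16 ± 0.44 in ethanol rats, against 13.23 ± 0.34, 13.48 ± 0.59 and 13.19 ± 0.61 in water rats for the CeA. For the NAc shell the Cnp means were 12.80 ± 0.31, 12.69 ± 0.27 and 12.83 ± 0.27 in ethanol rats, against 12.76 ± 0.23, 12.72 ± 0.27 and 12.82 ± 0.29 in water rats. Ethanol rats at 6 h had the lowest Cnp mean in each region, and all 6 NAc shell means lay within 0.13 of each other.

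Mbp means of the CeA were 14.56 ± 0.23, 14.48 ± 0.25 and 14.51 ± 0.21 in ethanol rats, against 14.47 ± 0.29, 14.63 ± 0.41 and 14.49 ± 0.37 in water rats. The NAc shell gave 14.60 ± 0.25, 14.46 ± 0.19 and 14.52 ± 0.30 in ethanol rats, against 14.56 ± 0.17, 14.51 ± 0.14 and 14.36 ± 0.13 in water rats for Mbp. Its span over groups was 0.16 for CeA and 0.24 for NAc shell means. Cldn11 read 14.10 ± 0.21, 14.06 ± 0.25 and 14.04 ± 0.22 in ethanol rats, against 14.04 ± 0.18, 14.23 ± 0.23 and 14.09 ± 0.36 in water rats in the CeA. Cldn11 in the NAc shell read 13.86 ± 0.16, 13.86 ± 0.23 and 13.91 ± 0.26 in ethanol rats, against 13.86 ± 0.14, 13.91 ± 0.24 and 13.87 ± 0.21 in water rats. The Cldn11 groups of the NAc shell differed by at most 0.054, the smallest span among the 7 lead probe sets in either region.

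Ugt8 had the widest within-group SD of the 7, with CeA means of 9.77 ± 0.71, 9.65 ± 0.84 and 9.65 ± 0.64 in ethanol rats, against 9.64 ± 0.71, 10.16 ± 0.81 and 9.62 ± 1.08 in water rats. Ugt8 in the NAc shell had 8.53 ± 0.55, 8.33 ± 0.38 and 8.19 ± 0.80 in ethanol rats, against 8.69 ± 0.24, 8.40 ± 0.25 and 7.96 ± 0.48 in water rats. Its NAc shell order was lowest in water rats at 24 h and highest in water rats at 1 h. For all 7 genes in both regions, 0 of the steps between neighbouring groups exceeded the within-group SD.

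No myelin probe set passed the test for ethanol against water in either region. In the CeA 6 h after drinking, all 12 read lower in ethanol rats, with log2 differences of -0.15 to -0.71, but none passed (limma, smallest adjusted p = 0.571). The same comparison called 0% of the 18625 probe sets tested, of which 1531 had an unadjusted p under 0.05, and 1 of the 12 members did. The 12 belong to 7 genes that varied together across CeA arrays (median correlation of lead pairs 0.90). Their shared sign, here and in the comparisons below, is thus not 12 separate results. The group that stood highest was water rats at 6 h, for all 7 lead probe sets of the CeA. Run 4, the run in which the 7 genes had their highest mean (13.1), held 2 of the 10 ethanol arrays at 6 h, 1 of them of low correlation, and 2 of the 5 water arrays at 6 h, both of low correlation. It held no water array of another time. The median 6 h difference of the 7 lead probe sets was -0.46, against -0.35 with runs as a block and -0.22 without the arrays of low correlation. With a block for the title number, 6 of the 7 lead differences turned positive. No ethanol array at 6 h shares its number with a water array at 6 h. That fit thus compares them only through arrays of other times, and no conclusion on the sign is drawn from it.

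Mag codes for myelin-associated glycoprotein, an adhesion molecule of the inner myelin membrane facing the axon. In the CeA at 6 h, Mag had a lowest, median and highest value of 9.50, 10.51 and 11.69 in ethanol rats, against 9.83, 11.39, 11.43, 11.46 and 11.74 in the 5 arrays of water rats. The groups overlapped, and 1 array of water rats lay apart from the other 4 at the low end. The fitted difference was -0.71 ± 0.35 (SE, limma, unadjusted p = 0.0482, adjusted p = 0.571). Within the runs of title numbers it was -1.43 in run 1 (1 against 1 array), -0.997 in run 2 (3 against 1), 0.39 in run 3 (4 against 1) and -0.33 in run 4 (2 against 2). Run 3, which holds the array of water rats that lay apart, thus had the other sign. With runs as a block the difference was -0.48, and without the 4 arrays of low correlation it was -0.56. Over the alternatives other than leaving out 1 array at a time, it ran from -0.93, with array weights, to -0.22, with a block for the title number. That block pairs no arrays of the treatments at 6 h.

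Mog codes for myelin oligodendrocyte glycoprotein, a surface protein of the outermost myelin layer. Its CeA values at 6 h were 10.53, 11.34 and 12.89 (lowest, median, highest) in ethanol rats, against 10.88, 11.93, 12.31, 12.43 and 12.51 in water rats. The highest array of all belonged to an ethanol rat, and the difference was -0.54 ± 0.34 (SE, limma adjusted p = 0.571). Cnp codes for a phosphodiesterase of non-compact myelin. It had 12.19, 13.05 and 13.64 in ethanol rats, against 12.62, 13.33, 13.59, 13.62 and 14.25 in water rats, a difference of -0.46 ± 0.25 (SE, limma adjusted p = 0.571). Without the 4 arrays of low correlation, the Cnp difference was -0.22.

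Ugt8 codes for the galactosyltransferase that makes galactocerebroside, a lipid typical of myelin. Its CeA values at 6 h were 8.88, 9.44 and 11.28 in ethanol rats, against 8.81, 10.19, 10.37, 10.51 and 10.95 in water rats. The ethanol rats reached both nearly as low and higher than the water rats, and the difference was -0.51 ± 0.41 (SE, limma adjusted p = 0.624). Mobp, Cldn11 and Mbp showed smaller differences. Mobp codes for an oligodendrocyte basic protein of compact myelin, and its difference was -0.26. Cldn11 codes for the claudin of the tight junctions in myelin, and its difference was -0.17. Mbp codes for the basic protein that joins the cytoplasmic faces of the membrane, and its difference was -0.15. Without the 4 arrays of low correlation the Mobp difference was -0.076, the Cldn11 difference -0.09 and the Mbp difference -0.094, and with runs as a block the Mbp difference was -0.071.

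**Figure D1:**
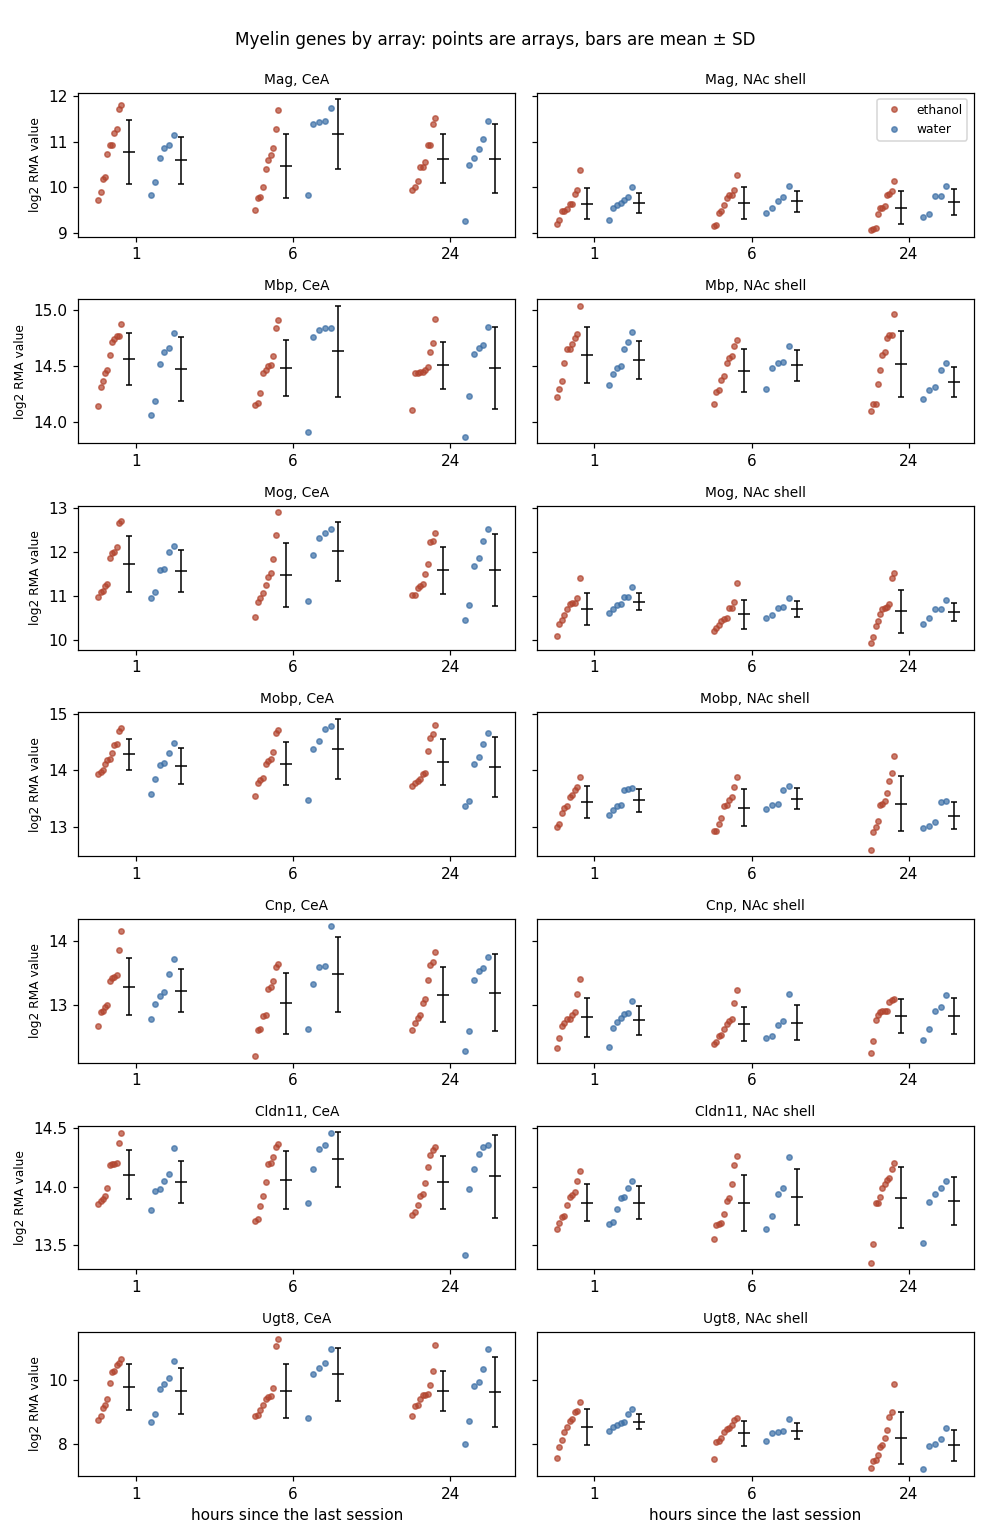
Log2 RMA values (vertical axis) of the lead probe set of each myelin gene in the CeA (left) and NAc shell (right) at 1, 6 and 24 h after the last session. Points are arrays in order of value, red for ethanol and blue for water rats, and bars are mean ± SD. The groups overlap in every panel, and at 6 h in the CeA 1 array of water rats lies below the other 4.

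At the other CeA times the fitted differences of the 7 lead probe sets were nearer 0. At 1 h all 12 probe sets read higher in ethanol rats, none passed, and the lead differences ran from 0.062 for Cnp to 0.21 for Mobp. Mbp 1383479_at had the largest of the 12, at 0.30, and was farther from 0 than at 6 h, when it read -0.24. At 24 h the lead differences ran from -0.051 for Cldn11 to 0.089 for Mobp, with 5 probe sets higher and 7 lower. Averaged over times (31 against 17 arrays), they ran from -0.17 for Mag to 0.011 for Mobp, with standard errors of 0.07 to 0.23. Neither the ethanol by time interaction nor time within either treatment called any of the 12, and time within ethanol rats called 0.0591% of all probe sets in the CeA. Ethanol against water called 0% in limma at 1 h, at 24 h and over the mean of times, with 1012, 122 and 1519 probe sets at an unadjusted p under 0.05, none of them a member.

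In the NAc shell at 1 h the lead differences ran from -0.16 for Mog to 0.047 for Cnp, with 6 probe sets higher and 6 lower. At 6 h they ran from -0.15 for Mobp to -0.026 for Cnp, and averaged over times from -0.088 for Mog to 0.051 for Mbp. At 24 h, they ran from -0.13 for Mag to 0.23 for Ugt8 (SE 0.27). No member passed at any time (limma called 0% of probe sets, and 351, 975 and 696 of 18625 had an unadjusted p under 0.05 at 1, 6 and 24 h, none of them a member), nor for time within ethanol rats, which called 0.0376% of probe sets in this region. In water rats the 24 h minus 1 h difference of Ugt8 was -0.74 without passing (limma adjusted p = 0.827).

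The difference between the regions in the ethanol effect was tested directly. At 6 h the CeA minus NAc shell difference was negative for all 12 probe sets, from -0.67 for Mag to -0.10 for Mbp. None passed, the smallest adjusted p being 0.512 in limma, and limma called 0% of 17572 probe sets (1947 with an unadjusted p under 0.05, none of them a member).

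**Figure D2:**
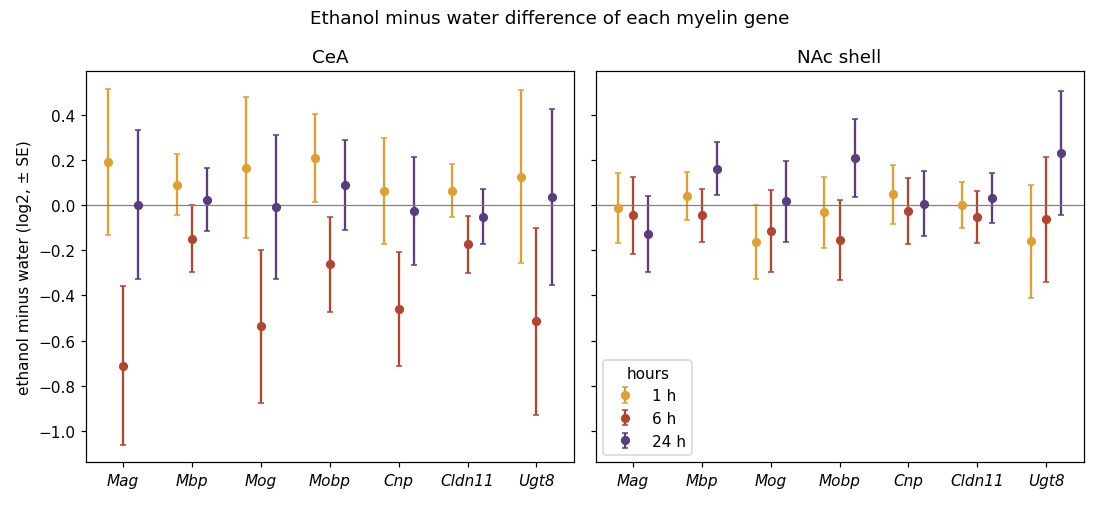
Ethanol minus water difference (log2, vertical axis) of the 7 myelin genes at each time, with bars of 1 SE from the fit of each region. In the CeA the 6 h differences lie below 0 for all 7 genes and the 1 h differences above 0, with bars that are wide against the differences, and none passed the test.

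Group accounted for a small share of the members' variance. It explained 3.53% to 9.21% of the sum of squares of the lead probe sets in the CeA, while runs explained 27.9% to 42.1%. In the NAc shell, group explained 1.12% to 15.8%. Title numbers there follow the order of times, so they mark no runs, and the labels name no batch. For the CeA, within-group SDs of the lead probe sets ran from 0.24 for Cldn11 to 0.79 for Ugt8 (median over tested probe sets 0.22). For the NAc shell they ran from 0.21 for Cldn11 to 0.53 for Ugt8 (median 0.19). The mean of the 7 lead probe sets was 12.5 in run 1, 12.7 in run 2, 12.3 in run 3 and 13.1 in run 4. The Gapdh 3 prime minus 5 prime difference, a measure of RNA integrity, was 2.46, 2.51, 3.45 and 3.09 in these runs. It was fitted as a covariate among the alternatives, and no myelin probe set then passed a test of ethanol. Its part in the differences between runs was not tested.

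The 7 genes moved together across arrays. With group means removed, the 21 pairs of lead probe sets had correlations of 0.74 to 0.95 in the CeA (median 0.90, 48 arrays), and of 0.19 to 0.89 in the NAc shell (median 0.70, 48 arrays). With run means removed as well, the CeA median was 0.91. Mog and Mobp were the closest pair in the CeA (0.95), and Mbp and Mobp in the NAc shell (0.89). Cldn11 and Ugt8 were the loosest pair in both regions, at 0.74 in CeA arrays and 0.19 in NAc shell arrays. These correlations describe arrays that share handling and normalization.

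**Figure D3:**
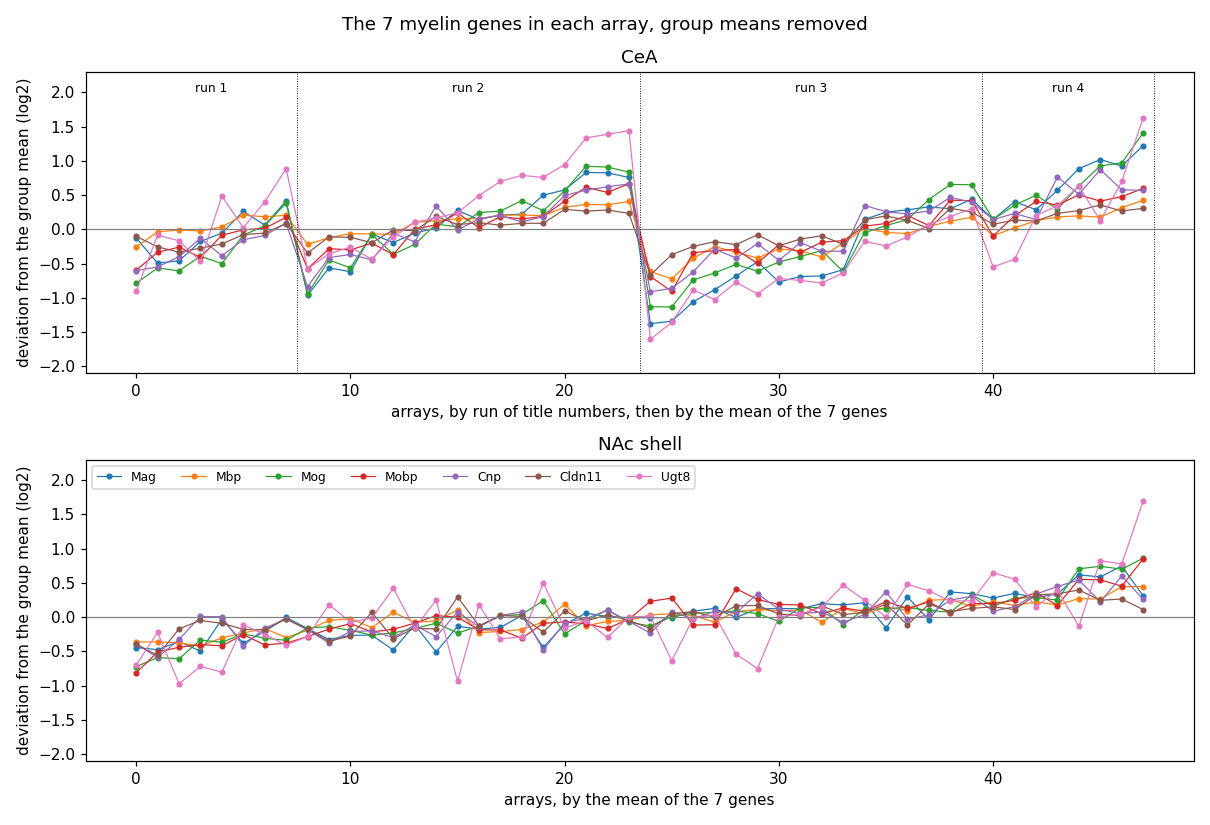
Deviation of each lead probe set from its group mean (log2, vertical axis) in each of the 48 arrays per region, ordered by the mean of the 7 genes, and in the CeA first by run. The lines run together, most closely in the CeA, where the mean of the 7 genes was 12.3 in run 3 and 13.1 in run 4.

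Probe sets of 1 gene also followed each other, with a median correlation over the 7 same-gene pairs of 0.79 in CeA arrays and 0.67 in NAc shell arrays, against 0.90 and 0.70 for the lead pairs. The 3 Mbp probe sets correlated at 0.58 to 0.79 in CeA arrays and at 0.61 to 0.69 in NAc shell arrays. The loosest same-gene pair of the CeA was Mbp 1383479_at with Mbp 1387341_a_at (0.58). The 3 Mobp probe sets correlated at 0.89 to 0.91 in CeA arrays and at 0.65 to 0.69 in NAc shell arrays. The 2 Cnp probe sets did so at 0.68 in CeA arrays and 0.43 in NAc shell arrays, the loosest same-gene pair there.

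Among all other genes, those most like the mean of the 7, by the average over both regions of the correlation across 48 arrays, were Myrf (0.95), Septin4 (0.93), Lpar1 (0.92), Ermn (0.92), Prtfdc1 (0.91), Qdpr (0.90), Evi2a (0.90), Slc12a2 (0.90), S1pr5 (0.90) and Gpr37 (0.90). Myrf is a transcription factor of myelinating oligodendrocytes, Ermn a cytoskeletal protein of myelin, Lpar1 and S1pr5 are receptors for lysophospholipids, and Slc12a2 is a chloride cotransporter. The median correlation over all tested probe sets was 0.013 for CeA and 0.078 for NAc shell arrays. Above 0.8 in both regions were 54 probe sets, 5 of them of the 7 genes.

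Other gene groups moved with the members to different degrees. In the CeA the mean of other myelin proteins correlated with the mean of the 7 at r = 0.99 (rho 0.99, and r = 0.99 without the 2 farthest arrays). Markers of other cell types did so as well: microglia at 0.89, brain vessels at 0.87, astrocytes at 0.84 and neurons at 0.43. Markers of the central amygdala ran the other way, at -0.73 (rho -0.73, -0.72 without the 2 farthest arrays), as did those of striatal projection neurons, at -0.53. In the NAc shell, other myelin proteins reached 0.88, astrocytes 0.74, neurons 0.53, microglia 0.49 and brain vessels 0.16, and striatal projection neurons -0.63. The Gapdh 3 prime minus 5 prime difference gave -0.21 in each region, and 0.0052 in the CeA with run means removed as well. The same difference for beta-actin, the other measure of RNA integrity, ran the other way, at 0.41 in the CeA (0.19 with run means removed) and 0.35 in the NAc shell, and its part in the members' values was not tested. Pmp22 was the only tested gene of the Schwann cell list, Prx and Pmp2 lying below the filter.

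**Figure D4:**
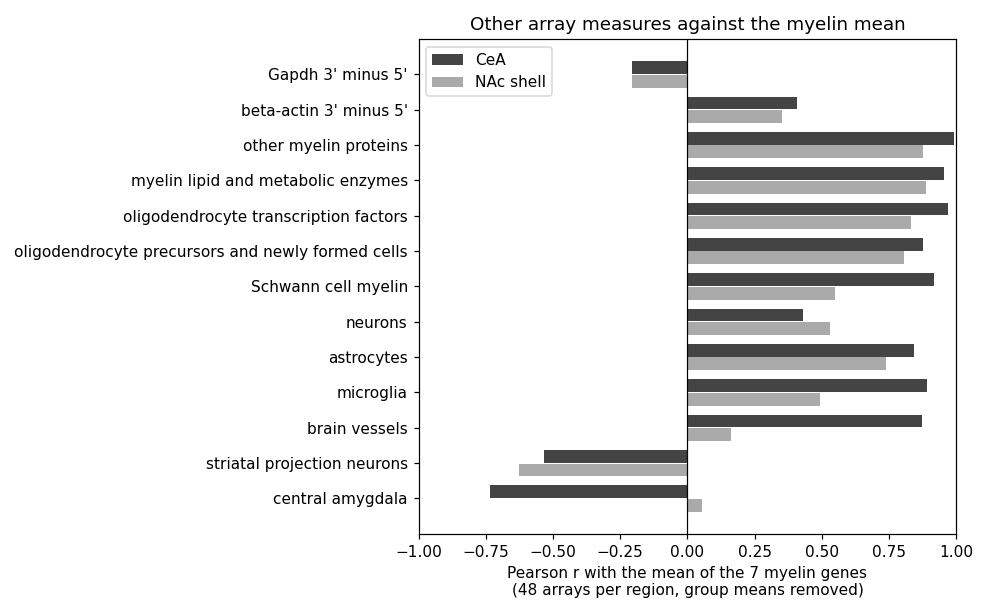
Pearson correlation (horizontal axis) of the mean of the 7 myelin genes with the Gapdh and beta-actin 3 prime minus 5 prime differences and with the mean of each other gene list, over 48 arrays per region with group means removed, black for the CeA and grey for the NAc shell. Other myelin proteins have the highest value in the CeA (0.99) and the enzymes of myelin lipids in the NAc shell (0.89), and the list of the central amygdala is negative in the CeA.

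At 6 h in the CeA these groups stood as follows. All 11 tested genes of other myelin proteins were lower in ethanol rats (median log2 difference -0.43, Pllp, a myelin membrane protein, -0.74 ± 0.34, SE), as were all 9 enzymes of myelin lipids and metabolism (median -0.34) and all 6 oligodendrocyte transcription factors (median -0.42). None passed the test, and the median over all tested probe sets was -0.015. Microglia markers were lower in 9 of 9 (median -0.23) and brain vessel markers in 8 of 8 (median -0.21), while the 4 tested markers of the central amygdala were higher (median 0.48), again with none passing. Precursor genes were lower in 5 of 5 (median -0.28), neuron markers in 5 of 9 (median -0.0097) and astrocyte markers in 7 of 9 (median -0.014), while striatal markers were higher in 7 of 8 (median 0.14), with none passing. The mean log2 level of the microglia list was 8.91 to 9.57 in the ethanol arrays and 9.10 to 9.78 in the water arrays, and that of the central amygdala list 9.04 to 11.44 in the ethanol arrays and 9.08 to 10.56 in the water arrays. The part of these lists in the members' differences was not tested.

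The regions differed in most members. Lead probe sets of 6 of the 7 genes were higher in the CeA than in the NAc shell, both in ethanol rats and in water rats, and that of Mbp did not pass in either. Of the 12 probe sets, 9 passed as higher and 0 as lower in each treatment, while 38.2% of all probe sets were called higher in the CeA in ethanol rats and 35.5% in water rats. Another 42.9% were called lower in ethanol rats and 38.3% in water rats. The comparison treats the arrays of the regions as independent. The Gapdh 3 prime minus 5 prime difference was also larger for CeA arrays, whose group means lay between 2.84 and 2.96. Groups of the NAc shell averaged 1.62 at the lowest and 2.01 at the highest. Single arrays overlapped, the lowest CeA array reading 2.17 and the highest NAc shell array 2.32. The part of this measure in the region differences of the myelin genes was not tested.

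Ugt8 differed most. In ethanol rats it had 8.74, 9.48 and 11.28 (lowest, median, highest) in the CeA, against 7.25, 8.38 and 9.88 in the NAc shell, and 10 of 31 CeA arrays lay above the highest NAc shell array. The difference was 1.34 ± 0.17 (SE, limma adjusted p = 1.06e-11), and in water rats 1.46 ± 0.23 (SE, limma adjusted p = 1.88e-08). The other Ugt8 probe set, 1368857_at, lay below the filter and was not tested. It read the other way, lower in the CeA by -0.52 in ethanol rats and -0.53 in water rats. In ethanol rats its highest CeA value was 3.99 and its lowest NAc shell value 4.12. Mag had 9.50, 10.61 and 11.80 in the CeA of ethanol rats, against 9.06, 9.58 and 10.39 in the NAc shell, a difference of 1.01 ± 0.13 (SE, limma adjusted p = 3.56e-11). For Mag, 20 of 31 CeA arrays of ethanol rats exceeded every NAc shell array of ethanol rats. In water rats the Mag difference was 1.12 ± 0.18.

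Mog was higher in the CeA by 0.94 ± 0.13 in ethanol rats and by 0.98 ± 0.17 in water rats (SE). Mobp was higher by 0.79 ± 0.09 in ethanol rats and by 0.79 ± 0.12 in water rats, and its other probe sets passed too, at 0.88 and 0.45 in ethanol rats. Cldn11 was higher by 0.19 ± 0.06 in ethanol rats and by 0.24 ± 0.08 in water rats. Their ranges overlapped between the regions.

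Among the tested probe sets, those of Cnp and those of Mbp disagreed. The lead probe set of Cnp was higher in the CeA by 0.38 ± 0.10 in ethanol rats (SE, limma adjusted p = 0.000247), while Cnp 1370693_a_at read -0.24 (limma adjusted p = 0.133), and with the mean of both probe sets the Cnp difference was 0.071 and no longer passed. The lead probe set of Mbp averaged 14.5 in each region, above 99.9% of probe sets, and its difference was -0.008 ± 0.063 in ethanol rats. Mbp 1383479_at was higher in the CeA by 0.84 ± 0.12 (SE, limma adjusted p = 1.4e-09), and Mbp 1387341_a_at read 0.13 without passing.

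**Figure D5:**
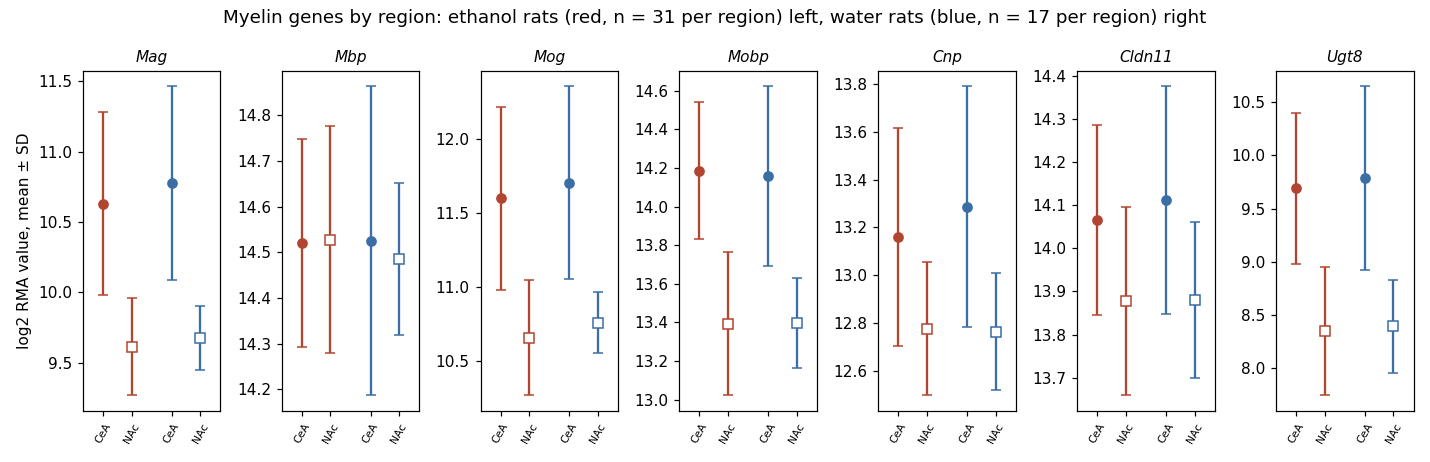
Mean ± SD of the log2 RMA values (vertical axis, a scale of its own for each gene) of the lead probe sets in the CeA (filled) and the NAc shell (open), in ethanol rats (red, 31 arrays per region) and water rats (blue, 17 arrays per region). For 6 genes the CeA mean lies above the NAc shell mean in both treatments, and for Mbp the means nearly coincide.

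Other oligodendrocyte genes differed between the regions in the same direction for the most part. Of the enzymes of myelin lipids and metabolism, 9 of 9 tested were higher in the CeA of ethanol rats (median 0.88), among them Enpp2 (1.33 ± 0.14, SE), which makes lysophosphatidic acid, and Fa2h (1.02 ± 0.11), which hydroxylates fatty acids of galactolipids. Of other myelin proteins 8 of 11 were higher and 1, Omg, was lower (-0.41 ± 0.05), with a list median of 0.69. The transcription factors Myrf (1.09 ± 0.11) and Olig1 (0.71 ± 0.08) were among the 4 of 6 that were higher, and Sox10 read -0.20 without passing. All 5 tested genes of precursors and newly formed cells were higher, among them Bcas1 (1.61 ± 0.12) and Pdgfra (0.44 ± 0.04), a growth factor receptor of precursors. The median over all tested probe sets was -0.029. Astrocyte markers were higher in 6 of 9 and lower in 2 of 9, and microglia markers higher in 5 of 8 and lower in 2 of 8, in the same rats. Of all probe sets, 38.2% were called higher in the CeA of these rats and 42.9% lower.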

How the data were processed

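RNA of 96 arrays was measured with Affymetrix rat arrays. Values in the deposited table are on a log2 scale, from RMA per the submitters' processing notes; its version, the genome build and any filter are not given in the sources used here. The 57 control probe sets were left out. Gene symbols came from the platform annotation, updated by Entrez ID. Probe sets with a mean above the 40th percentile of their region (6.96 in the CeA, 7.09 in the NAc shell) were tested.

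Each region was fitted in limma (version 3.58.1, R version 4.3.3), using 6 group means and variances moderated along an intensity trend; p-values were adjusted by Benjamini-Hochberg across all 18625 tested probe sets. A joint fit of 17572 probe sets compared the regions. An adjusted p under 0.05 passed. The fit was checked on simulated data. The members and all gene lists were chosen with earlier results of these data known. For each gene the probe set with the highest mean led. Genes named beyond the members were the 10 most correlated with the mean of the 7 lead probe sets and up to 4 per list by smallest p; Sox10 was named outside this rule between the regions, after its values were seen.

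Alternatives were leaving out the filter, setting it at the 60th percentile, quantile normalization again, quantile normalization of all arrays together, array quality weights, the Gapdh end difference as a covariate, a block for the title number or for runs, arrays of low correlation left out, each array left out, and the mean of all probe sets of a gene. Arrays of low correlation had a median correlation more than 3 scaled median absolute deviations low. This was first computed over all probe sets, which marked 3 CeA and 5 NAc shell arrays, and then, after that result was seen and to match earlier processing of these data, over the filtered ones, which marked 4 and 5; both versions were run. Promoter windows came from RefSeq. The number of arrays limits the precision.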

Additional observations from a re-analysis of the deposited data

Results flagged for a closer look

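Over the 14 probe sets, 140 sets of 4 to 10 arrays of a group were searched for a single array far from the rest, and 8 were found; chance gives about 5%. In the CeA, water rats at 6 h, replicate 13, was the lowest of 5 arrays for all 12 tested probe sets, and far from the other 4 for 3 of them. It read 13.9 for Mbp 1368810_a_at (next 14.8), 9.83 for Mag 1368861_a_at (next 11.4) and 8.11 for Cnp 1370693_a_at (next 9.88). This array was not among those of low correlation, and leaving out 1 array at a time moved the Mag difference at 6 h between -1.05 (without this array) and -0.57 (without water rats at 6 h, replicate 16). In the NAc shell, ethanol rats at 1 h, replicate 33, an array of low correlation, was the highest of 10 arrays for all 12 tested probe sets, and far from the rest for Mobp 1368263_a_at (12.49, next 11.99) and for Cldn11 1369609_at (6.01, next 5.48), which was not tested. Ethanol rats at 1 h, replicate 40, were lowest for Ugt8 1368857_at (4.18, next 4.26). For Mobp 1370500_a_at, ethanol rats at 6 h, replicate 47, were highest (9.21, next 8.51), and water rats at 6 h, replicate 27, were lowest (7.78, next 8.36).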

How the results depend on the processing

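No myelin probe set passed any test of ethanol, of its interaction with time or of time under any alternative or with any array left out. Between the regions 7 to 11 passed, counted in either direction, and the number of probe sets tested changed with the filter. Most of the ethanol differences are small against their error, and signs changed. Of 736 such values of single genes under the alternatives 85 had the other sign, as had 236 of 5376 with 1 array left out. Many of these values could not change. Leaving out an array outside the groups compared does not alter a difference, nor does another filter. The counts are thus no measure of how stable the signs are. In the CeA at 6 h no lead difference changed sign with 1 array left out. Among the other alternatives only the block for the title number changed signs there. The alternatives counted include, in the CeA, the block for the title number, which pairs no arrays of the treatments at 6 h. Of the 84 ethanol differences behind these counts, 56 within a region and 28 between the regions, 70 lay within 1 SE of 0 and did not pass. Of the 14 differences between the regions themselves, 3 of 122 values under the alternatives had the other sign, and 12 of 1344 with 1 array left out. These counts have the same limit.

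The title numbers do not pair the CeA arrays: over 17 same-numbered pairs the correlation of deviations ran from -0.78 to 0.75 (median 0.038), 8 of them over 0.1. With the title number as a replicate block, the CeA differences at 6 h were -0.22 for Mag in place of -0.71, and 0.010 for Cldn11, 0.13 for Cnp, 0.39 for Mbp, 0.41 for Mobp, 0.27 for Mog and 0.85 for Ugt8, in place of negative values; the median of the 7 was 0.27 at 6 h and -0.73 at 1 h. Over the mean of times this block gave 0.064 for Mbp, -0.0092 for Mobp and 0.12 for Ugt8. It could not be fitted in the NAc shell, where treatments share too few numbers.

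For the CeA over the mean of times, Mobp was -0.11 with array weights, -0.089 with the mean of its probe sets and -0.017 with the run block, and Mbp was 0.000596 without the arrays of low correlation. For the NAc shell over the mean of times, Mobp was -0.013 with the Gapdh covariate, -0.027 with array weights, -0.031 with repeated quantile normalization and -0.010 without the arrays of low correlation by either rule. Cnp was -0.018 with repeated quantile normalization and -0.027 without those arrays by either rule, Mbp -0.0032 with repeated quantile normalization, Cldn11 0.024 and Ugt8 -0.14 with the Gapdh covariate, and Ugt8 -0.021 with array weights. The causes were not tested. Between regions in ethanol rats, Mbp was 0.0061 with repeated and 0.10 with joint quantile normalization, and 0.32 with the mean of its probe sets, which then passed (0.37 in water rats), while Cnp no longer did (0.071 in ethanol and 0.26 in water rats).

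With 1 array left out, CeA values over the mean of times ran from -0.072 to 0.012 for Mbp and from -0.065 to 0.052 for Mobp. In the NAc shell they ran from -0.037 to 0.021 for Cldn11, from -0.023 to 0.046 for Cnp, from -0.021 to 0.034 for Mobp and from -0.061 to 0.048 for Ugt8. The median CeA difference at 6 h of the 7 genes ran from -0.68 (without water replicate 13) to -0.27 (without water replicate 16). Mbp between regions in ethanol rats ran from -0.024 to 0.0085.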
